A study of Mus musculus with 18 samples.

Results

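The comparison set wild-type (WT) mouse embryonic fibroblasts after 90 min in tumour necrosis factor alpha (TNF, 10 ng/ml) against the same line after 45 min. Members were the deposited count columns named for the WT line at 90 min (2 libraries) and at 45 min (2 libraries), 4 of the 18 libraries of the series. Fibroblast lines of 3 genotypes were compared in the study, all immortalised mouse embryonic fibroblasts: WT, a p65 knock-out (p65 KO) and an IKK2 knock-out (IKK2 KO). Each line was left untreated or kept in TNF at 10 ng/ml for 45 or 90 min, with 2 libraries per group. The untreated WT libraries and the 45 and 90 min libraries of both knock-out lines are used here to place the WT values. Each genotype is 1 immortalised line, so genotype and line cannot be told apart. The column names give no replicate number, and libraries are called a and b. The labels do not say whether a and b are separate cultures, so the p-values cover the spread between libraries of a pair, which may be technical.

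As background, TNF receptors switch on the IκB kinase complex, of which IKK2 is the main catalytic subunit for this route. The complex marks IκB inhibitors for destruction and so frees NF-κB dimers containing p65, while the same receptors also start the JNK, p38 and ERK kinase cascades. The first genes to respond include those that close the pathway again, such as the IκB inhibitors and A20, and many of the early mRNAs are short-lived. A second reading after the peak therefore separates transcripts that come down quickly from those that persist, start late or had dipped before.

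Levels are given as CPM, counts relative to library size as scaled by edgeR's TMM method, and changes as log2 differences with their standard error. This standard error was worked back from edgeR's quasi-likelihood F-test, as the size of the change divided by the square root of F. Total counts were 19598210 and 16708346 in the 45 min libraries and 19958891 and 18878665 in the 90 min libraries, within the range of 16708346 to 23469439 over all 18 libraries. In these 4 libraries 21125 to 21503 genes had at least 1 count. Rela, the gene of p65 (ENSMUSG00000024927, GRCm38 chr19:5637483-5648130), stood in untreated p65 KO at 8.9% of untreated WT. Ikbkb, the gene of IKK2 (ENSMUSG00000031537, chr8:22659212-22706589), stood at 43.7 and 43.1 CPM in untreated IKK2 KO against 59.3 and 60.4 CPM in WT and 42.7 in both p65 KO libraries, so counts over the whole gene do not check the IKK2 label. The summed level of the 14 fibroblast markers ran from 6410 to 6510 CPM at 45 min and from 6270 to 6340 CPM at 90 min. Among these, 1 had no count in the 4 libraries and 12 were tested. Of the 12 tested, 2 had no count at 1 of the times. Of 12 epithelial markers, 7 had no count in the 4 libraries and the sum stayed between 0.116 and 0.544 CPM. Neural markers summed to 464 to 470 CPM at 45 min and 569 to 573 CPM at 90 min, almost all of it Nes and Sox2, and both genes rose (0.30 ± 0.03 and 0.39 ± 0.04). Their part in the results was not tested. In bulk RNA, fewer cells of a type and less RNA per cell cannot be told apart.

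Between 45 and 90 min, 2334 of 16322 tested genes changed (14.3%; edgeR quasi-likelihood test, Benjamini-Hochberg adjusted p under 0.05). Of these, 1319 rose (8.08%) and 1015 fell (6.22%). Most changes were small. The median change among called genes was 1.23-fold, 266 rose and 280 fell by at least 1.5-fold, and 118 rose (0.723%) and 125 fell (0.766%) by at least 2-fold. Of the called genes, 2333 had both libraries of one time outside the range of the other. The calls were made on these same libraries, so this is no separate support for them. The share without overlap over all tested genes was not counted. The 125 genes that fell at least 2-fold summed to 797.6 CPM in untreated cells, 3252 CPM at 45 min and 882.7 CPM at 90 min. For the 118 that rose at least 2-fold the sums were 2621, 1361 and 3402 CPM. As summed levels, the first set was highest at 45 min and the second lowest there. The choice of these genes fixed the order of 45 and 90 min. The step from untreated shares the 45 min libraries with that choice. The sum of the first set leans on abundant genes such as Egr1 and Tnfaip3, so it does not describe each member. Protein-coding genes made up 57 of the fallers and 72 of the risers, and 54 of the 125 fallers and 64 of the 118 risers reached 2 CPM in the higher group. DESeq2's Wald test called 1283 genes, with 64 rises and 60 falls of at least 2-fold. Of the genes DESeq2 called 60.8% rose, against 56.5% of those called by edgeR. Leaving out any 1 of the 4 libraries also lowered the number of calls. A naming rule picked the 15 largest changes in each direction among called genes that have an established symbol, reach 2 CPM at one of the times and show no overlap, and other genes come from gene lists. Counts of called list members stand beside the 8.08% of all tested genes that rose and the 6.22% that fell.

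**Figure D1:**
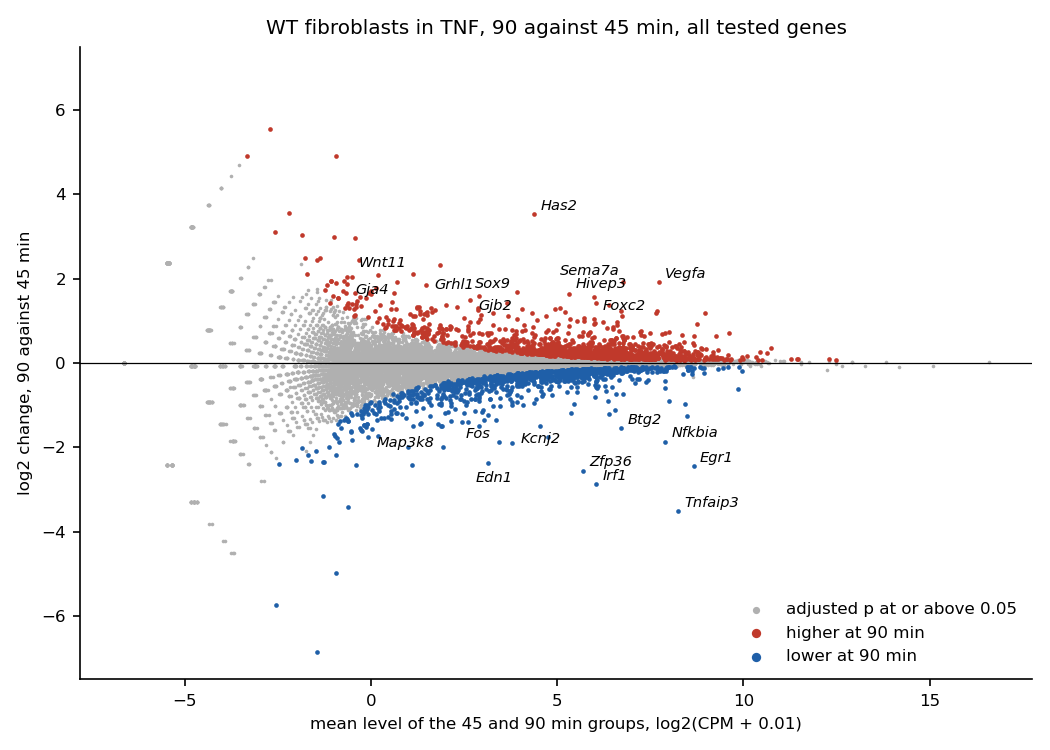
Each point is 1 of 16322 tested genes in WT cells: the x axis is the mean level of the 45 and 90 min groups as log2(CPM + 0.01), the y axis the log2 change from 45 to 90 min, red higher and blue lower at 90 min at an adjusted p under 0.05, grey not called. Tnfaip3 lies lowest and Has2 highest among genes of at least 2 CPM, and 1319 red points face 1015 blue ones.

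The steepest fall among well-expressed genes was that of Tnfaip3, which encodes A20, the ubiquitin editor that restrains NF-κB (ENSMUSG00000019850, chr10:19000910-19015657). Its level was 8.98 and 8.54 CPM in untreated cells, 552 and 563 CPM at 45 min, and 50.2 and 46.8 CPM at 90 min. Both 45 min libraries stood far above all the others, and the 90 min libraries remained above the untreated ones. The 11.5-fold fall was a log2 change of −3.52 ± 0.03 (SE, adjusted p = 6.1e-47). Spread evenly over the interval it is a fall by a factor of 2 every 12.8 min, a net rate that holds both synthesis and decay.

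Nfkbia, encoding the inhibitor IκBα (ENSMUSG00000021025, chr12:55489410-55492647), went from 15.6 and 15.1 CPM to 377 and 368 CPM at 45 min and 105 and 100 CPM at 90 min. The 3 pairs of libraries did not overlap, with the 90 min pair in the middle. Its fall was −1.86 ± 0.03 on the log2 scale (adjusted p = 7.5e-38), and the 90 min level was still 2.74 ± 0.05 above untreated (adjusted p = 7.2e-36). Nfkbid, another IκB-family gene (ENSMUSG00000036931, chr7:30421732-30428746), read 1.07 CPM in both untreated libraries, 5.60 and 4.54 CPM at 45 min and 1.53 and 2.25 CPM at 90 min. It fell by 1.44 ± 0.19 (adjusted p = 3.2e-07). Nfkbiz, which encodes the nuclear co-regulator IκBζ, read 54.4 and 60.5 CPM at 45 min and 26.0 and 24.7 CPM at 90 min (−1.17 ± 0.06, adjusted p = 1.8e-19).

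A κB consensus motif was searched in RefSeq promoter windows (250 bases before to 50 after each start, GRCm38.p6), because these inhibitors are textbook NF-κB targets. The stretches are shown on the strand of the gene with the match in capitals, each 30 bases long and none reaching past the start. Tnfaip3 and Nfkbid held 2 matches each, and 1 of each is shown. The match shown for Tnfaip3 (chr10:19015411-19015440, minus strand) begins 12 bases before the RefSeq start, that in Nfkbia (chr12:55492657-55492686, minus) 29 bases before, that in Nfkbid (chr7:30422170-30422199, plus) 226 bases before an alternative start, and that in Irf1 (chr11:53769984-53770013, plus) 13 bases before.
Tnfaip3: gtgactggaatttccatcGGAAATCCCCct
Nfkbia: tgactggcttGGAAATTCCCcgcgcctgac
Nfkbid: gccccgccctGGGACTTCCCagagcaccac
Irf1: gtggccgagtccgggccGGGGAATCCCgct
A match describes letters only and says nothing of binding in these cells.

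Among 17 tested inhibitors and feedback genes of NF-κB, 7 fell and 2 rose, with a median log2 change of 0.01 against 0 over all tested genes. Besides those named, Zc3h12a, an RNase that degrades inflammatory mRNAs, read 18.3 and 18 CPM at 45 min and 9.90 and 9.32 CPM at 90 min (−0.92 ± 0.10). The other 8 did not pass the test. Of the 2 rises 1 was lost without library b at 45 min, and also without either library at 90 min. One gene without a call, Nfkbie, encoding the inhibitor IκBε, read 22.1 CPM in both libraries at 45 min and 25.8 and 22.8 CPM at 90 min (0.14 ± 0.08, adjusted p = 0.29), against 1.52 and 1.44 CPM untreated. The mRNAs of A20 and IκBα thus came down after 45 min, and no fall was called for that of IκBε. Protein levels were not read here.

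Genes of the NF-κB proteins themselves mostly went on upwards: of 5 tested, 3 rose and 1 fell. Nfkb2, encoding p100, read 53.5 and 53.7 CPM untreated, 134 and 129 CPM at 45 min and 173 and 168 CPM at 90 min (0.37 ± 0.03, adjusted p = 1.2e-12). Nfkb1, encoding p105, went from 237 and 236 to 280 and 279 CPM (0.24 ± 0.03), and Rela from 95.7 and 92.3 to 108 and 111 CPM (0.21 ± 0.04). Rel, encoding c-Rel, was the exception, with 70.5 and 76.7 CPM at 45 min and 58.3 and 59.0 CPM at 90 min (−0.32 ± 0.04, adjusted p = 2.7e-07). Upstream, Traf3, an adaptor that restrains the non-canonical pathway, rose from 61.6 and 62.7 to 91.4 and 90.6 CPM (0.55 ± 0.04, adjusted p = 3e-14). On the list of TNF receptors, adaptors and upstream kinases 2 of 20 rose (10.0%) and 2 fell (10.0%). These shares lay near the 8.08% and 6.22% of all tested genes. One of the falls was that of the adaptor gene Traf2 (−0.28), lost without library a of either time.

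Irf1, the interferon regulatory factor that responds to NF-κB (ENSMUSG00000018899, chr11:53770014-53778374), read 4.51 and 5.99 CPM untreated, 117 CPM in both libraries at 45 min and 16.2 and 15.6 CPM at 90 min. The groups did not overlap, and the 90 min pair lay between the other pairs. The 7.33-fold fall was −2.87 ± 0.05 (adjusted p = 6.2e-36). Map3k8, encoding the kinase TPL2 that links NF-κB to ERK (ENSMUSG00000024235, chr18:4331327-4353015), read 0.304 and 1.03 CPM untreated, 5.50 and 6.70 CPM at 45 min and 1.34 and 1.73 CPM at 90 min (−1.98 ± 0.21, adjusted p = 8e-10). Map3k13, encoding a kinase upstream of JNK, went from 3.86 and 3.55 CPM to 1.39 and 1.36 CPM (−1.43 ± 0.22, adjusted p = 3e-06).

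Of 9 tested chemokines, 4 fell and 1 rose (median −0.33, or −0.19 with genes at 0 counts set to their bound). Ccl2, a monocyte attractant, came down only from 61.7 and 63.2 CPM to 48.4 and 50.9 CPM (−0.33 ± 0.05), and both 90 min values were far above the 0.101 and 0.123 CPM of untreated cells. Its neighbour Ccl7 fell further, from 2.72 and 2.74 CPM to 1.14 and 1.05 CPM (−1.31 ± 0.25, adjusted p = 0.00013). The neutrophil attractants were scarce. Cxcl1 had 12 and 14 counts at 45 min and 0 in both libraries at 90 min, at least 9.12-fold lower from a floor of 3 counts over the group. Cxcl2 had 18 and 19 counts and then 0 and 1, a ratio of 38.9 with an exact counting interval of 6.57 to 1580. Cx3cl1, a membrane-bound chemokine, went the other way, from 104 and 102 to 160 and 156 CPM (0.61 ± 0.03, adjusted p = 1.6e-18). Among genes chosen after their values were seen, Cxcl10 read 6.69 and 5.82 CPM at 45 min and 6.19 and 6.59 CPM at 90 min (0.02 ± 0.13), and the adhesion molecule Vcam1 read 83.7 and 85.7 and then 83.2 and 81.1 CPM (−0.04 ± 0.04). Neither passed the test.

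Several immediate-early genes, which serum and many kinases switch on within minutes, came down. Egr1, a zinc-finger transcription factor (ENSMUSG00000038418, chr18:34859823-34864984), read 131 and 136 CPM untreated, 689 and 677 CPM at 45 min and 126 and 125 CPM at 90 min. Its 90 min libraries lay just below the untreated ones (−0.09 ± 0.03 against untreated, adjusted p = 0.091), and the fall from 45 min was −2.44 ± 0.03 (adjusted p = 2.9e-44). Fos, an AP-1 subunit (ENSMUSG00000021250, chr12:85473890-85477273), read 6.70 and 7.80 CPM, then 17.9 and 16.0 CPM, then 5.15 and 4.08 CPM. It fell by 1.88 ± 0.11 (adjusted p = 2.8e-17) to a level 0.66 ± 0.13 below untreated (adjusted p = 0.00042). Btg2, an antiproliferative gene also listed as a p53 target, read 157 and 158 CPM at 45 min and 56.1 and 51.9 CPM at 90 min (−1.54 ± 0.04, adjusted p = 4.7e-30), against 39.7 and 44.7 CPM untreated.

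On the list of EGR, NR4A, KLF and other immediate-early factors, 14 of 40 tested fell and 11 rose (median −0.05). DESeq2 called 7 of those rises. The falls were the larger changes. Plk2, a stress-induced kinase, went from 500 and 513 to 211 and 212 CPM (−1.26 ± 0.03), beside 201 and 220 CPM untreated. Egr2 went from 116 and 118 to 49.7 and 50.9 CPM (−1.22 ± 0.05) and Ier2 from 108 and 105 to 58.8 and 54.9 CPM (−0.90 ± 0.04). The largest rise was that of Ier5l, from 41.6 and 47.1 to 85.7 and 84.1 CPM (0.94 ± 0.05), a gene that read 104 and 101 CPM before TNF. Of 11 AP-1 genes tested, 4 fell and 1 rose. Junb fell from 451 and 463 to 235 and 231 CPM (−0.97 ± 0.04) and Jun from 332 and 336 to 178 and 177 CPM (−0.91 ± 0.03), while Maff rose by 0.34, and a second rise was called in 5 alternatives, among them without library a at 45 min.

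Zfp36 encodes tristetraprolin, which binds AU-rich stretches in the 3′ UTR and speeds mRNA decay (ENSMUSG00000044786, chr7:28376784-28380253). It read 12.9 and 15.9 CPM untreated, 88.3 and 89.9 CPM at 45 min and 15.9 and 14.4 CPM at 90 min. The 90 min libraries lay beside the untreated ones (0.06 ± 0.09 against untreated, adjusted p = 0.79), and the fall was −2.55 ± 0.06 (adjusted p = 1.2e-31). Of 20 tested mRNA-decay factors 5 fell and 3 rose. Its relative Zfp36l1 went the same way by a smaller step (−0.45), and both Roquin genes, Rc3h1 and Rc3h2, rose by 0.18.

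The AU-rich nonamer TTATTTATT was searched in the longest annotated 3′ UTR of each gene (GENCODE M21, GRCm38). It was present in 7 of the 15 fallers and in 2 of the 15 risers that the naming rule picked, and 3 of the sites in fallers and both in risers are shown, 5′ to 3′ on the strand of the gene with the nonamer in capitals. They lie in Zfp36 (chr7:28376951-28376980, minus strand), Fos (chr12:85477102-85477131, plus), Nfkbia (chr12:55489608-55489637, minus), Vegfa (chr17:46017166-46017195, minus) and Sox9 (chr11:112786748-112786777, plus).
Zfp36: ttatgacgactTTATTTATTgtattaagat
Fos: gtgttttcaatTTATTTATTaagatggatt
Nfkbia: aggaccacgttTTATTTATTgtgcttttga
Vegfa: tttgttatcatTTATTTATTggtgctactg
Sox9: atgtgctaaaaTTATTTATTttgtaaggag
The same letters thus stood in transcripts that fell and in transcripts that rose.

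Several fallers ended below where they began. Edn1, encoding the vasoconstrictor endothelin-1 (ENSMUSG00000021367, chr13:42301476-42307990), read 7.51 and 7.63 CPM untreated, 14.7 CPM in both libraries at 45 min and 2.42 and 3.30 CPM at 90 min. The 90 min pair was the lowest of the 3, −2.37 ± 0.15 against 45 min (adjusted p = 9.3e-17) and −1.41 ± 0.17 against untreated (adjusted p = 1.6e-08). Kcnj2, encoding an inward-rectifier potassium channel (ENSMUSG00000041695, chr11:111066164-111076821), read 12.1 and 12.4 CPM, then 19.5 and 23.9 CPM, then 6.04 and 5.44 CPM. It too was lowest at 90 min (−1.91 ± 0.11 against 45 min, −1.09 ± 0.12 against untreated, adjusted p = 1.7e-09). Irs1, an insulin-receptor adaptor chosen after its values were seen, read 106 and 104 CPM untreated, 130 and 128 CPM at 45 min and 59.0 and 60.1 CPM at 90 min (−1.11 ± 0.04 against 45 min).

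Chac1, a glutathione-degrading enzyme induced by ATF4 (ENSMUSG00000027313, chr2:119351229-119354381), read 2.18 and 2.22 CPM untreated, 5.65 and 5.36 CPM at 45 min and 1.83 and 2.09 CPM at 90 min (−1.49 ± 0.18, adjusted p = 2e-08). On the list of ATF4 and unfolded protein response genes, 9 of 24 fell and 2 rose (median −0.07). DESeq2 called 7 of the list as falls, and fewer than 9 were called whichever library was left out. Ddit3, encoding CHOP, went from 4.66 and 5.07 to 2.57 and 2.46 CPM (−0.94 ± 0.16). Trib3 fell by 0.92 ± 0.20 and Sesn2 by 0.85 ± 0.08, while Xbp1, of the IRE1 branch, rose by 0.44 ± 0.05. Fam43a went from 34.9 and 33.4 to 11.6 and 12.6 CPM (−1.5 ± 0.08), near the 9.84 and 9.65 CPM of untreated cells. Ppm1k, a mitochondrial phosphatase of branched-chain amino acid catabolism, went from 3.37 and 3.84 to 1.24 and 1.41 CPM (−1.44 ± 0.22). Of 23 tested p53 targets, 9 fell and 1 rose (median −0.08). Here too DESeq2 called 7 falls, and leaving out any 1 library gave fewer than 9. Plk2, Btg2, Sesn2 and the proapoptotic Bbc3 (−0.89 ± 0.12) led the falls, the first 2 shared with the immediate-early list, and Cdkn1a, encoding the cell cycle inhibitor p21, rose by 0.18 ± 0.03.

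**Figure D2:**
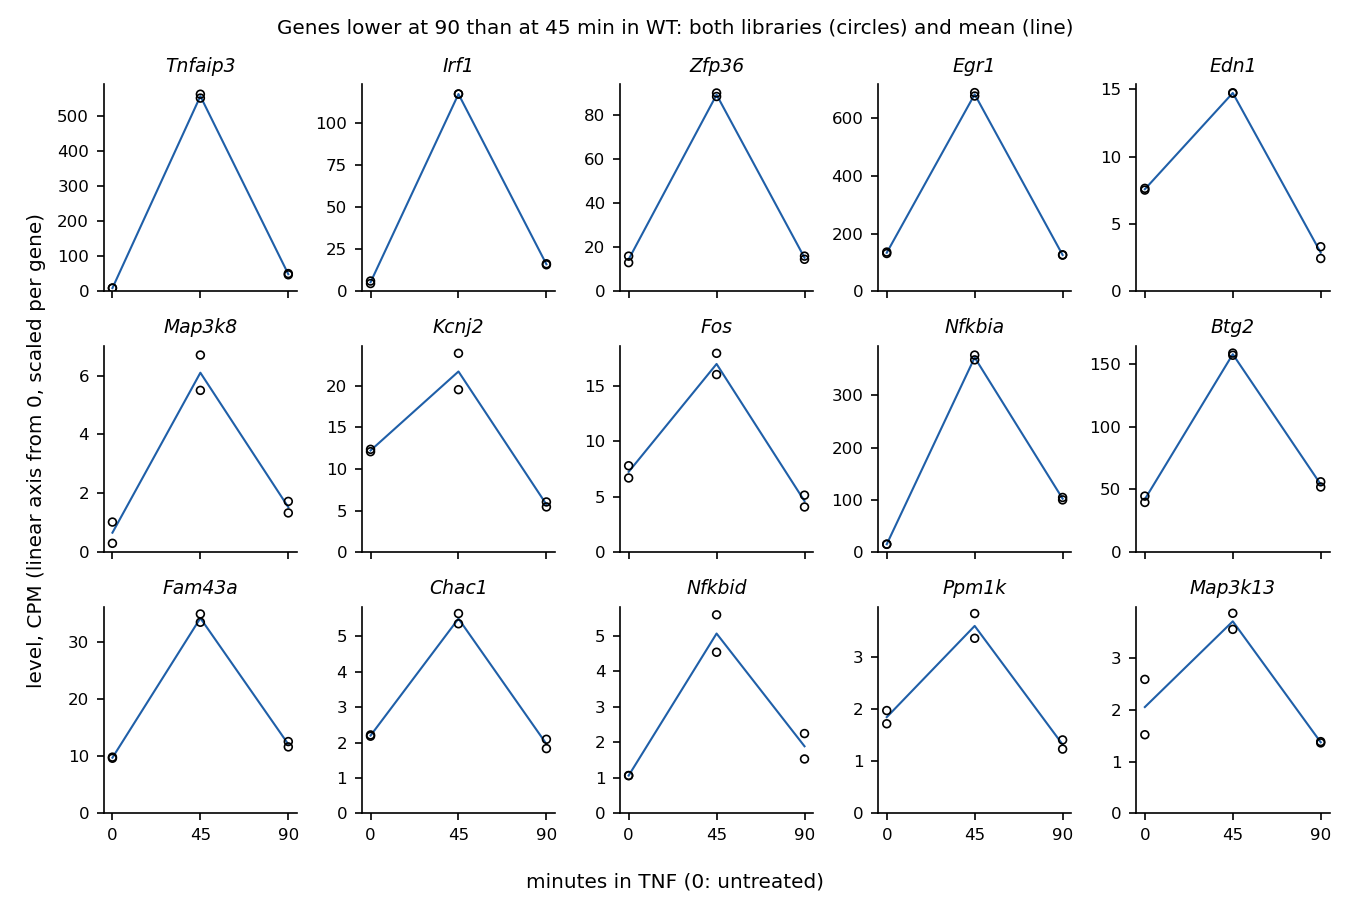
Levels in CPM of the 15 fallers named by rule in untreated WT cells (0 min) and after 45 and 90 min in TNF, with circles for the 2 libraries of each time and a line through their means, each axis linear from 0 and scaled per gene. Every panel peaks at 45 min, Tnfaip3 from 557 to 48.5 CPM in the mean, and in Edn1, Kcnj2 and Fos for example, the 90 min circles lie below those at 0 min.

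Has2, which encodes the main hyaluronan synthase of fibroblasts (ENSMUSG00000022367, chr15:56665627-56694539), had the largest rise among called genes of at least 2 CPM. It read 20 and 20.4 CPM untreated, 3.62 and 2.97 CPM at 45 min and 39.9 and 36.6 CPM at 90 min. The 3 pairs did not overlap, the 45 min pair being lowest and the 90 min pair highest. The 11.5-fold rise was 3.53 ± 0.10 (adjusted p = 1.1e-29), and the 90 min level stood 0.92 ± 0.06 above untreated (adjusted p = 8.3e-16). Of 12 tested genes of hyaluronan synthesis and turnover, 3 rose and 1 fell. Ugdh, which makes the UDP-glucuronate precursor, went from 152 and 149 to 198 and 202 CPM (0.40 ± 0.03), and the hyaluronan receptor gene Cd44 from 583 and 572 to 707 and 713 CPM (0.30 ± 0.03). Cemip, which takes part in hyaluronan breakdown, fell from 133 and 136 to 83.5 and 78.7 CPM (−0.73 ± 0.04, adjusted p = 2e-19). Has2 and Ugdh, both of synthesis, thus rose while Cemip fell.

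Vegfa, the vascular endothelial growth factor (ENSMUSG00000023951, chr17:46016993-46032369), read 175 and 163 CPM untreated, 90.8 and 87.1 CPM at 45 min and 337 and 334 CPM at 90 min. Its 90 min libraries stood above both other pairs (1.91 ± 0.04 against 45 min, adjusted p = 4.6e-33, and 0.99 ± 0.04 against untreated). Sema7a, a membrane-anchored semaphorin (ENSMUSG00000038264, chr9:57940112-57962865), had the same order, with 110 and 113, 45.7 and 44.1, and 169 and 174 CPM (1.93 ± 0.05, adjusted p = 3.5e-32). Flt1, a VEGF receptor gene, went from 30.1 and 29.5 to 49.9 and 47.7 CPM (0.71 ± 0.06). On the list of hypoxia and glycolysis genes 4 of 24 rose (16.7%) and none fell, with a median of 0.04. When protein-coding genes alone were tested, 7 rises were called.

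Connexins, the channel proteins of gap junctions, had the highest median of all lists with 5 or more tested members, 0.79, with 4 of 7 rising and none falling. The lists were chosen with earlier results of these data known, so this rank is descriptive only. Gja4 (chr4:127311421-127314039) read 1.62 and 1.27 CPM untreated, 0.693 and 0.641 CPM at 45 min and 2.57 and 2.56 CPM at 90 min (1.93 ± 0.29, adjusted p = 1.7e-06). Gjb2 read 6.59 and 7.43, 3.52 and 2.97, and 8.91 and 9.68 CPM (1.51 ± 0.13, adjusted p = 7e-12). Both were lowest at 45 min, and their 90 min libraries lay above the untreated ones. The most abundant connexin, Gja1, read 212 and 215 CPM and then 219 and 228 CPM and did not pass the test (0.07 ± 0.03, adjusted p = 0.15).

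The list of bone morphogenetic protein (BMP) and SMAD targets moved most nearly as a whole. Of 19 tested, 14 rose and 1 fell, against 8.08% and 6.22% of all tested genes, with a median of 0.59. Like the other lists, it was chosen with earlier results of these data known, so its counts and rank are descriptive only. The fall, of Snai2 (−0.25 ± 0.08), was lost without library b of either time. Snai1, a repressor of E-cadherin (ENSMUSG00000042821, chr2:167538195-167542814), read 118 and 117 CPM untreated, 35.6 and 36.4 CPM at 45 min and 97.6 and 93.9 CPM at 90 min. It rose by 1.41 ± 0.05 (adjusted p = 5.7e-26) and was still 0.29 ± 0.04 short of untreated (adjusted p = 1.6e-07). Smad9, a BMP receptor-activated SMAD, read 29.4 and 27.9, 7.63 and 8.56, and 17.4 and 17.3 CPM (1.11 ± 0.09). The homeobox gene Dlx3 went from 1.29 and 1.46 to 2.92 and 3.04 CPM (1.12 ± 0.21). Id1 and Id3, inhibitors of helix-loop-helix factors and standard BMP readouts, went from 84.3 and 81.4 to 128 and 132 CPM (0.65 ± 0.04) and from 130 and 123 to 192 and 199 CPM (0.63 ± 0.03). Their untreated levels were 152 and 154 CPM, and 218 and 230 CPM, so both remained below them at 90 min. The scarce Id4 read 0.248 and 0.291 CPM at 45 min and 0.891 and 0.680 CPM at 90 min (1.54 ± 0.45, adjusted p = 0.014), a call lost without library a at 90 min or without either library at 45 min. Id2 recovered less, with 79.6 and 79.7 CPM untreated, 36.0 and 36.3 CPM at 45 min and 44.6 and 44.2 CPM at 90 min (0.30 ± 0.06).

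Among 17 tested ligands and targets of BMP, activin and TGF-β, 6 rose and none fell at the threshold (median 0.11, 9 members at an unadjusted p under 0.05 in either direction, 4 called by DESeq2). In 5 alternatives, among them without library a at 45 min, 1 fall was called. Inhba, encoding the activin A subunit, went from 473 and 489 to 749 and 750 CPM (0.64 ± 0.03), above the 530 and 510 CPM of untreated cells. Ccn2, a matricellular target of SMAD and YAP signalling, went from 587 and 595 to 979 and 958 CPM (0.71 ± 0.03), whereas its family member Ccn1 fell from 1129 and 1098 to 727 and 724 CPM (−0.62 ± 0.02).

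Several developmental transcription factors dipped and recovered. Of 29 tested SOX, FOX and related genes, 12 rose and 3 fell (median 0.16). Foxc2, a forkhead factor of mesenchyme and lymphatic vessels (ENSMUSG00000046714, chr8:121116171-121118895), read 84.2 and 76.6 CPM untreated, 33.6 and 30.7 CPM at 45 min and 95.6 and 94.6 CPM at 90 min (1.56 ± 0.05, adjusted p = 4.9e-27). Sox9, the master factor of cartilage (ENSMUSG00000000567, chr11:112782224-112787760), read 14.9 and 14.5, 8.37 and 5.71, and 22.6 and 23.3 CPM (1.68 ± 0.10, adjusted p = 3e-17). Grhl1, a grainyhead factor, went from 1.04 and 1.40 to 4.60 and 4.08 CPM (1.85 ± 0.24) and Wnt11, a Wnt ligand, from 0.842 and 0.757 to 3.66 and 3.35 CPM (2.12 ± 0.25). Lef1, which carries Wnt signals to DNA, read 12.6 and 10.5, 3.96 and 4.60, and 10.4 and 10.1 CPM (1.27 ± 0.13).

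Zinc-finger genes of the HIVEP family, whose products bind κB-like sites, also rose. Hivep3 (ENSMUSG00000028634, chr4:119733784-120138045) read 33.2 and 33.3 CPM untreated, 19.3 and 19.7 CPM at 45 min and 62.2 and 58.5 CPM at 90 min (1.63 ± 0.06, adjusted p = 3.6e-25). Its relatives were picked after their values were seen. Hivep1 read 52.6 and 52.2, 62.1 and 63.5, and 148 and 146 CPM (1.22 ± 0.04), and Hivep2 read 40.7 and 41.5, 43.3 and 40.2, and 86.0 and 85.7 CPM (1.04 ± 0.04). Hivep1 and Hivep2 had no dip at 45 min: they were late genes in these data. Tmcc3, a membrane protein gene of the endoplasmic reticulum (ENSMUSG00000020023, chr10:94311949-94590956), read 98.1 and 95.8, 46.6 and 46.7, and 121 CPM in both 90 min libraries (1.38 ± 0.04).

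Feedback genes of the MAP kinases mostly rose: of 18 tested phosphatase, Sprouty and Spred genes, 10 rose and 2 fell (median 0.29). The list holds no Spry3, a Sprouty gene noted after its values were seen, at 2.08 and 2.39 CPM at 45 min and 0.990 and 0.942 CPM at 90 min (−1.20 ± 0.26). Dusp2, a nuclear phosphatase of ERK and p38 (ENSMUSG00000027368, chr2:127336159-127338376), read 18.4 CPM in both untreated libraries, 6.98 and 6.70 CPM at 45 min and 17.7 and 19.0 CPM at 90 min. The 90 min pair enclosed the untreated level, and the rise was 1.42 ± 0.10 (adjusted p = 5e-15). Dusp5, which acts on ERK, went from 122 and 123 to 289 and 285 CPM (1.23 ± 0.03), above 206 and 209 CPM untreated. Dusp6 went from 65.1 and 66.7 to 115 and 116 CPM (0.81 ± 0.04). The falls on the list were those of Dusp8, from 28.6 and 32.0 to 17.2 and 18.2 CPM (−0.77 ± 0.07), and Dusp1, from 36.2 and 35.2 to 25.8 and 27.5 CPM (−0.42 ± 0.06). Rgs2, which dampens G-protein signals, went from 1.19 and 1.57 to 3.22 and 3.72 CPM (1.34 ± 0.21, adjusted p = 2.8e-06).

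Of 18 tested cytokine and growth factor genes, 10 rose and none fell at the threshold (median 0.29, 11 at an unadjusted p under 0.05 in either direction, 10 called by DESeq2). They arrived by different routes. Fgf2 and Il11 dipped and returned: Fgf2 read 156 and 149, 67.7 and 67.1, and 145 and 148 CPM (1.12 ± 0.04), and Il11 read 9.28 and 12.1, 4.26 and 4.19, and 9.30 and 11.6 CPM (1.30 ± 0.15). Pdgfb and Lif climbed at both steps. Pdgfb, a platelet-derived growth factor chain, read 0.406 and 0.287, 1.88 and 1.98, and 5 and 4.19 CPM (1.25 ± 0.19, adjusted p = 2.2e-06). Lif, an IL-6 family cytokine, read 8.77 and 8.33, 43.3 and 44.4, and 73.1 and 72.5 CPM (0.73 ± 0.05, adjusted p = 4.4e-15). Csf1, the macrophage growth factor, went from 718 and 701 to 823 and 807 CPM (0.20 ± 0.02). Il15ra, the IL-15 receptor chain, was picked after its values were seen and read 1.22 and 1.15, 1.73 and 1.98, and 4.26 and 4.34 CPM (1.22 ± 0.19). Xaf1, an interferon-inducible antagonist of XIAP, went from 1.44 and 1.22 to 3.22 and 3.51 CPM (1.32 ± 0.22, adjusted p = 1.1e-05).

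**Figure D3:**
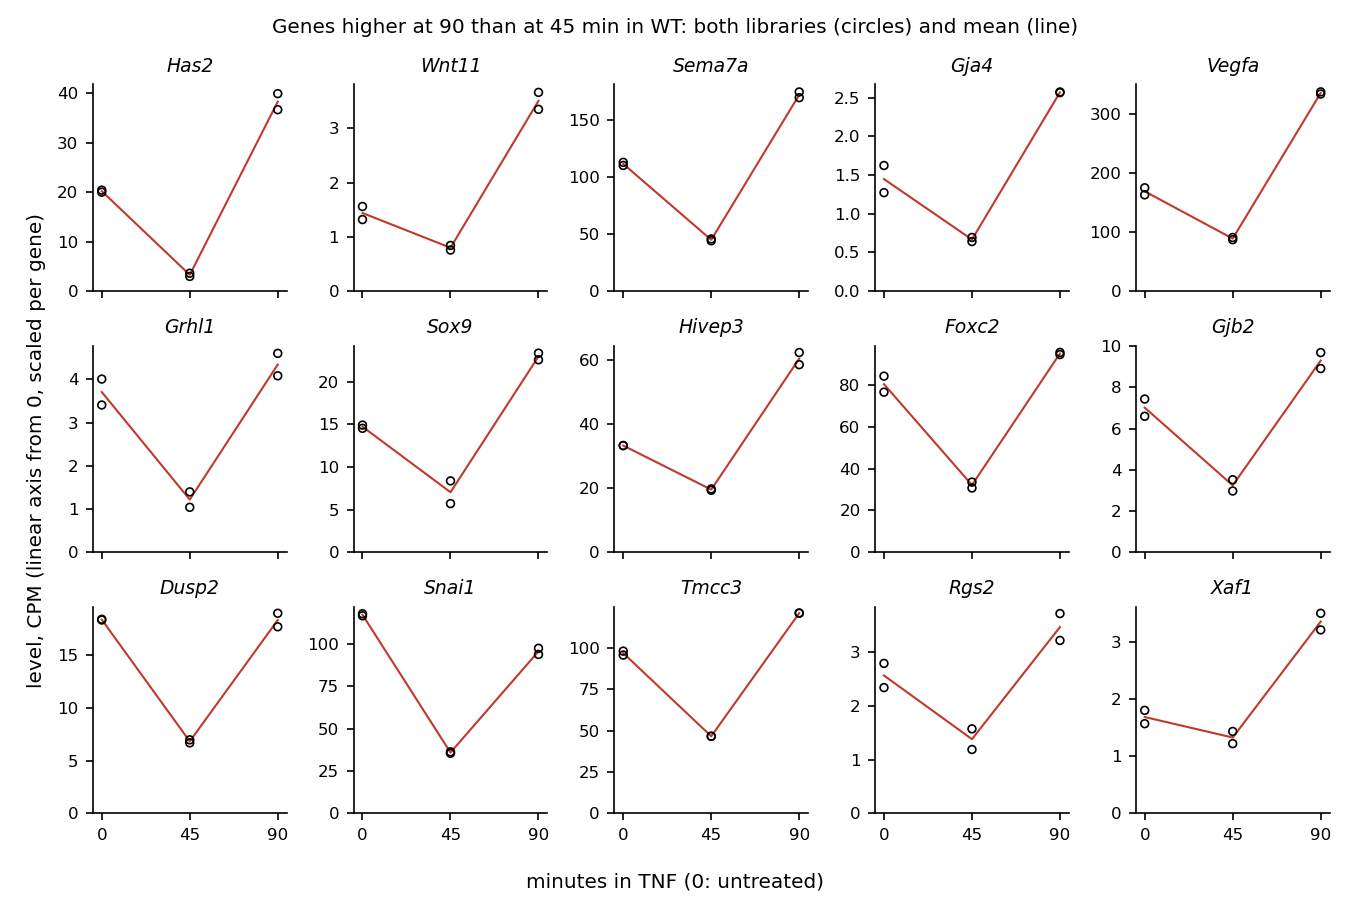
Levels in CPM of the 15 risers named by rule in untreated WT cells (0 min) and after 45 and 90 min in TNF, with circles for the 2 libraries of each time and a line through their means, each axis linear from 0 and scaled per gene. In all 15 panels the lowest mean is at 45 min, in Xaf1 by little, and Has2 goes from 3.29 to 38.3 CPM between 45 and 90 min.

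Other lists held few or small changes. None of 17 histone genes and none of 15 mitochondrially encoded genes was called by edgeR (2 and 1 at an unadjusted p under 0.05, 0 and 0 by DESeq2), with medians of 0.03 each. For histone genes 1 fall was called without library a at 45 min, 1 with only the 6 WT libraries, 1 fall and 1 rise without the filter on low counts, and 1 fall and 2 rises with only the libraries compared. Of 21 serum response and cytoskeleton genes, 13 rose and none fell, but by small steps: the largest was Tagln at 0.30 and the median 0.10. Of 16 clock genes 5 rose (31.2%) and 6 fell (37.5%), with a median of −0.22. Nfil3, a repressor (0.78 ± 0.08), and Arntl, the core activator (0.51 ± 0.05), rose, while Dbp (−0.81 ± 0.15) and Tef (−0.43 ± 0.06), 2 of the clock's output activators, fell. Without library b of the 45 min group only 3 clock genes fell.

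**Figure D4:**
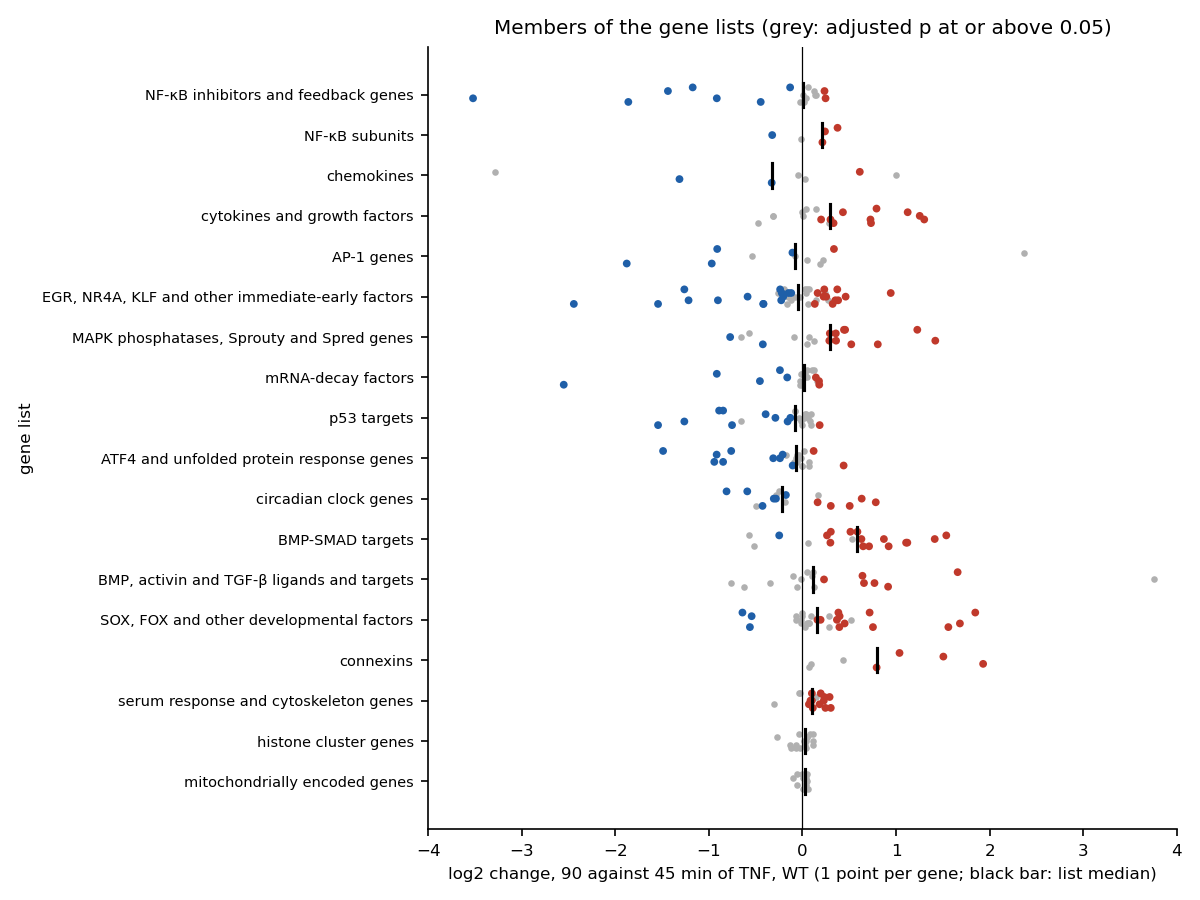
Each point is 1 tested member of the named gene list, placed by its log2 change from 45 to 90 min in WT cells, with red for a called rise, blue for a called fall, grey for no call and a black bar for the list median. Medians lie at 0.59 for BMP-SMAD targets and 0.79 for connexins, and 2 scarce chemokines, Cxcl1 and Cxcl2, lie beyond the left edge of the axis.

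Gene structure, which the comparison did not use, was set beside the changes of at least 2-fold without a test. The 57 protein-coding fallers had a median length of 10.3 kb and 5 exons, the 72 risers 24.2 kb and 7 exons, and all 12315 tested protein-coding genes 24.3 kb and 9 exons. Genes under 10 kb were 49.1% of fallers, 29.2% of risers and 24.2% of all. The nonamer shown above was present in 15 of 56 fallers with an annotated 3′ UTR (26.8%), 6 of 72 risers (8.33%) and 1069 of 12210 tested genes (8.76%), at median 3′ UTR lengths of 1163, 1340 and 1201 bases. In the last 500 bases alone, for genes with at least that length, the shares were 12.8%, 3.12% and 3.78%. The 788 protein-coding genes that fell by less than 2-fold had a median length of 38 kb and 11 exons, 14.2% were under 10 kb, and 11.6% held the nonamer. Of the 1133 that rose by less than 2-fold, 12.4% held it.

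Promoter windows were found for 45 of the 57 fallers, 56 of the 72 risers and 9614 of the 12315 tested genes, with several starts for some genes. Both strands were searched and matches could overlap. The κB consensus was in 17.5% of faller windows, 19.8% of riser windows and 10.4% of all windows, so the shares of both directions lay above that of all windows. A CArG box, the site of serum response factor, was in 8.77%, 2.47% and 1.45%, the 5 faller windows belonging to 2 genes. The AP-1 site TGACTCA was in 5.26%, 11.1% and 3.75%, and TATAAA in 7.02%, 13.6% and 6.86%. TGACGTCA, the cyclic AMP response element, was in 5.26%, 2.47% and 3.01%. GGGCGG stood in 56.1%, 63.0% and 62.9% and CCAAT in 43.9%, 25.9% and 38.2%. Among the risers, the match in Vegfa (chr17:46032476-46032505, minus strand, 118 bases before the start) is shown because it faces those of the inhibitors above.
Vegfa: tagtggcctaGGGGCTCCCCgaaaggcggt

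The same interval was then read in the knock-out lines. Their levels did not enter the WT contrast that chose these genes. All 18 libraries, however, shared the filter, the scaling and the estimate of spread behind the WT calls. The WT libraries that chose the genes also entered each difference between lines. In p65 KO cells 371 genes rose (2.27%) and 74 fell (0.453%) from 45 to 90 min. Of the 125 WT fallers of at least 2-fold, 1 fell and 6 rose there. Of the 118 risers 8 rose and none fell. In IKK2 KO cells 1653 genes rose (10.1%) and 913 fell (5.59%). Of the 125 WT fallers 35 fell (28.0%) and 2 rose, and of the 118 risers 39 rose (33.1%) and 2 fell. Many of these genes were scarce in the knock-outs. Among fallers of at least 2 CPM in the line, 30 of 47 fell and 2 rose in IKK2 KO, and 1 of 27 fell and 5 rose in p65 KO. Among such risers 25 of 43 rose and 1 fell in IKK2 KO, and 7 of 37 rose and 0 fell in p65 KO. In p65 KO the share that rose was thus alike, 18.5% of these fallers and 18.9% of these risers. Shares over all genes of at least 2 CPM in a line were not counted.

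In p65 KO cells Tnfaip3 read 12.3 and 11.7 CPM untreated, 18.7 and 19.0 CPM at 45 min and 20.7 and 20.1 CPM at 90 min. The 45 min libraries were the lower pair of the treated ones. Its change of 0.12 ± 0.07 (adjusted p = 0.46) differed from the WT change by −3.64 ± 0.08 (adjusted p = 2.7e-33). Zfp36 read 11.5 and 9.87 and then 9.51 and 9.34 CPM there, a difference of −2.38 ± 0.12 (adjusted p = 2.3e-19). Has2 was already at 81.5 and 82.0 CPM in untreated p65 KO and read 93.5 and 94.7, then 95.7 and 98.7 CPM, without the dip of WT cells (difference 3.48 ± 0.11, adjusted p = 2.6e-27). Vegfa rose there by 0.19 ± 0.04, from 88.9 and 88.3 to 104 and 97.6 CPM, against 1.91 in WT (difference 1.73 ± 0.06). Sema7a stood under 1 CPM in every p65 KO library, so its difference of 1.69 ± 0.40 rests on low counts and was not called without library b of the p65 KO 45 min group (adjusted p = 0.15). Over all tested genes 1325 differed between the WT and p65 KO changes (8.12%), 661 higher (4.05%) and 664 lower (4.07%) in WT. DESeq2's test called 726 differences, 53.3% of them higher in WT. Without library b of the p65 KO 45 min group fewer were called, and a smaller share of them was higher.

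In IKK2 KO cells Tnfaip3 and Irf1 had a lower peak at 45 min, which came down. Tnfaip3 read 36.5 and 32.9 CPM untreated, 147 and 151 CPM at 45 min and 50.7 and 51.0 CPM at 90 min (−1.55 ± 0.04), a fall 1.97 ± 0.06 smaller than in WT (adjusted p = 7e-28). The 90 min levels of the 2 lines were close, at 50.2 and 46.8 CPM in WT. Irf1 read 41.4 and 41.2 and then 21.7 and 21.1 CPM (difference −1.93 ± 0.09). Egr1 and Egr2 fell further than in WT. Egr1 went from 333 and 321 to 39.0 CPM in both libraries (−3.07 ± 0.04), 0.62 ± 0.05 further than in WT (adjusted p = 4.4e-13), and Egr2 from 34.6 and 33.8 to 7.35 and 6.12 CPM (−2.34 ± 0.09), 1.12 ± 0.11 further (adjusted p = 9.4e-11). Zfp36 fell by 2.46 ± 0.09, and its difference from WT of −0.09 ± 0.12 did not pass the test (adjusted p = 0.79). Plk2 went from 793 and 810 to 742 and 724 CPM (−0.13 ± 0.03), a smaller fall than in WT by 1.13 ± 0.04 (adjusted p = 1.1e-24). Over all genes 1105 differed (6.77%), 450 higher (2.76%) and 655 lower (4.01%) in WT.

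Late genes differed in both directions. Lif in IKK2 KO cells read 12.4 and 10.6 CPM untreated, 7.15 and 5.12 CPM at 45 min and 29.2 and 26.0 CPM at 90 min (2.18 ± 0.10), a larger rise than in WT by 1.45 ± 0.12 (adjusted p = 8.4e-13). Csf1 went from 423 and 410 to 805 and 786 CPM there (0.93 ± 0.03, difference from WT −0.73 ± 0.04). The reverse held for Has2, from 27.9 and 31.5 to 56.9 and 58.3 CPM (0.95 ± 0.06, difference 2.57 ± 0.12, adjusted p = 4.9e-20), and for Vegfa (0.45 ± 0.04, difference 1.47 ± 0.06). Among other genes with the largest differences, Pde4b, a cyclic AMP phosphodiesterase, went in WT from 2.87 and 2.21 to 4.06 and 5.08 CPM and in IKK2 KO from 1.95 and 1.45 to 0.630 and 1.06 CPM (difference 1.82 ± 0.38, adjusted p = 0.00077). Spsb1, a ubiquitin ligase adaptor, went in WT from 21.8 and 22.4 to 51.4 and 50.9 CPM and in IKK2 KO from 10.2 and 8.29 to 7.61 and 7.44 CPM (difference 1.5 ± 0.14). Dlx3 rose in WT and fell in IKK2 KO, from 20.8 and 20.5 to 15 CPM in both libraries (difference 1.58 ± 0.23).

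**Figure D5:**
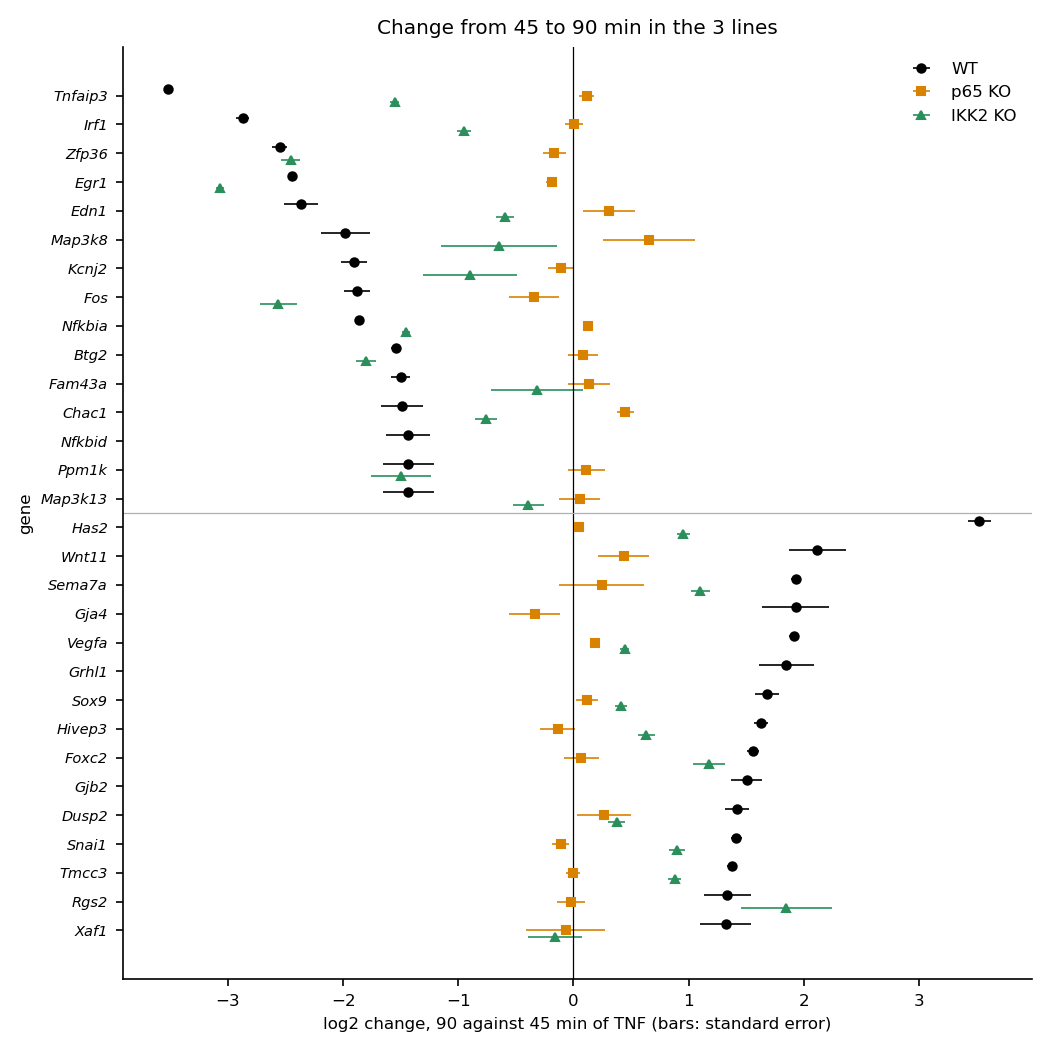
Log2 change from 45 to 90 min of TNF with its standard error for the 15 fallers and 15 risers named in WT, in WT (black circles), p65 KO (orange squares) and IKK2 KO (green triangles), shown only where both group means reached 0.25 CPM in that line (30, 27 and 25 genes). The orange squares run from −0.34 for Fos and Gja4 to 0.66 for Map3k8, while most green triangles lie on the side of WT, with Egr1 at −3.07 beyond it.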

How the data were processed

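The values are estimated counts per gene, made by the authors from paired-end reads of total RNA with featureCounts and deposited unscaled for 55536 genes in 18 libraries (tools per the submitters' processing notes). Of the non-zero deposited values 31.8% were fractional. The same notes name GRCm38 and, besides Trimmomatic and HISAT2 without a usable version, Subread 1.6.2, edgeR 3.26.4 and FastQC 0.11.8. Strand setting, handling of multiply mapped reads and annotation release: not given in the sources used here.

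Counts were rounded. filterByExpr kept 16322 genes (0.0601% of counts lost), libraries were scaled by TMM, and edgeR 4.0.16 in R 4.3.3 ran the robust quasi-likelihood test with 1 coefficient per group over all 18 libraries (9 residual degrees of freedom, biological coefficient of variation 1.93%). P-values were adjusted by Benjamini-Hochberg within each contrast at 0.05. Symbols, types and positions come from GENCODE M21.

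The 45 gene lists (829 symbols, 710 tested, 3 absent from the table) and the members were chosen with earlier results of these data known. The naming rule asked for an adjusted p under 0.05, a mean of 2 CPM or more at one of the times, no overlap and an established symbol, and took the 15 largest changes each way. Lists gave up to 4 examples each way by size of change, and other members named with values were chosen after these were seen. For differences between lines the 5 largest each way were taken. Contrasts with untreated cells share libraries with the main one, so values are set side by side only. Alternatives were RLE scaling, DESeq2 1.42.0, no filter, protein-coding genes only, fewer libraries in the fit and leaving out each library. The pipeline was tested on counts simulated from its own fitted means and spread. Such a test cannot show whether that spread suits these libraries. Replicate pairs differed beyond counting error (chi-square over degrees of freedom 2.02 at 45 min and 1.18 at 90 min), and each was counted as 2 libraries. This spread does not show whether the libraries of a pair are separate cultures. Figures were drawn with matplotlib 3.10.9.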

Additional observations from a re-analysis of the deposited data

Results flagged for a closer look

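The 10 genes with the largest difference from each knock-out line are given here because the change from 45 to 90 min differed between lines by a test of the difference itself (edgeR, adjusted p under 0.05). All values are the WT log2 change minus that of the knock-out, with the standard error. The genes were chosen for a change in WT, and no explanation was tested.

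Against p65 KO, the difference was −3.64 ± 0.08 for Tnfaip3, −2.88 ± 0.10 for Irf1, −2.67 ± 0.28 for Edn1, −2.64 ± 0.46 for Map3k8 and −2.38 ± 0.12 for Zfp36. These 5 fell in WT and were not called in p65 KO, where Map3k8 stayed under 1 CPM in every library. In the other direction it was 3.48 ± 0.11 for Has2, 2.27 ± 0.37 for Gja4, 1.77 ± 0.17 for Hivep3, 1.73 ± 0.06 for Vegfa and 1.69 ± 0.40 for Sema7a, the last not called without library b of the p65 KO 45 min group (1.5, adjusted p = 0.15). Hivep3 read 3.64 and 3.75 CPM at 45 min and 3.44 and 3.28 CPM at 90 min in p65 KO.

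Against IKK2 KO, it was −2.76 ± 0.59 for Papolb, −1.97 ± 0.06 for Tnfaip3, −1.93 ± 0.09 for Irf1, −1.81 ± 0.51 for Mir365-2 and −1.77 ± 0.18 for Edn1. Papolb, a poly(A) polymerase gene that lies inside Radil on the same strand, went in WT from 6.98 and 10.7 to 3.56 and 3.04 CPM and stayed under 1 CPM in IKK2 KO. Reads of the 2 genes could be confused, so its value is uncertain. Mir365-2 counts are those of a miRNA hairpin in a total RNA library, with 2.62 and 1.86 CPM at 45 min and 1.24 and 1.47 CPM at 90 min in WT. Higher in WT were Has2 (2.57 ± 0.12), Trim21 (1.88 ± 0.55), an interferon-inducible antibody receptor at 0.315 and 0.264 CPM in IKK2 KO at 90 min, Pde4b (1.82 ± 0.38), Dlx3 (1.58 ± 0.23) and Spsb1 (1.5 ± 0.14). Mir365-2 and Trim21 lost their calls when some libraries were left out, and DESeq2 gave no adjusted p for either. That of Mir365-2 went to −1.35 without library a of the IKK2 KO 90 min group, and was also lost without library a of WT at either time or without either IKK2 KO library at 45 min. That of Trim21 went to 1.32 without library a of the IKK2 KO 45 min group, and was also lost without library b of WT at 45 min or without either IKK2 KO library at 90 min.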

How the results depend on the processing

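Called genes between 45 and 90 min in WT numbered 2334, and 1283 in DESeq2's Wald test. For the difference from p65 KO the numbers were 1325 and 726, and for that from IKK2 KO 1105 and 594. Leaving out 1 library at a time gave 1626 to 1794, 927 to 1219 and 824 to 985 calls. The other settings stayed within 1.5 times of these counts, and no change named by rule reversed. All 30 genes named by rule kept direction in 10 of 10 alternatives and their call in DESeq2's test. They were chosen as the largest changes in these same libraries, so this is no separate support for them. Rises were 60.8% of the DESeq2 calls in WT, against 56.5% in the main fit. Calls were fewer without either library of the 90 min group. Called members of some lists moved by over 1.5 times. By DESeq2's test, rises of SOCS and JAK-STAT feedback genes went from 4 to 1 and their falls from 3 to 0. Rises went from 4 to 0 for ribosomal protein, 4 to 2 for heat-shock and 9 to 5 for collagen and matrix genes. Falls of survival genes went from 5 to 3 by that test. Without library b at 90 min, falls of survival genes (5) went to as few as 3, and rises of interferon genes (5) to as few as 2, as they also did without library b at 45 min. Without either 90 min library or library a at 45 min, falls of vascular factors went from 5 to as few as 3 and of cell cycle genes from 7 to as few as 2. Without library a at 90 min or b at 45 min, rises of collagen and matrix genes went from 9 to as few as 4. Without either 90 min library or library b at 45 min, rises of heat-shock genes went from 4 to as few as 1 and of ribosomal protein genes from 4 to as few as 0, while without library a at 45 min the latter numbered 6. Rises of hypoxia and glycolysis genes went from 4 to 7 with protein-coding genes only. Falls of clock genes went from 6 to 3 without library b at 45 min. No paired analysis was possible because the column names carry no replicate numbers. Depth limits the calls of scarce genes, and 54 of the 125 falls and 64 of the 118 rises of at least 2-fold reach 2 CPM.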

Other observations

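Some gene groups not described above moved by small steps. Of 12 tested Notch and Hes-Hey genes 5 rose and none fell at the threshold in edgeR (6 at an unadjusted p under 0.05, 4 rises and no fall in DESeq2, 1 fall without library b at 90 min). The ligand gene Jag1 read 18.1 and 17.7 CPM untreated, 12.0 and 11.6 CPM at 45 min and 18.2 and 17.3 CPM at 90 min (0.58 ± 0.08, adjusted p = 8.6e-07), and the glycosyltransferase gene Lfng read 26.9 and 25.7, 12.9 and 12.2, and 18.2 and 16.5 CPM (0.46 ± 0.09). Oxidative stress, ferritin and metallothionein genes gave 5 rises and 1 fall among 17, the fall of Mt1 (−0.17) being lost whichever of the 4 libraries was left out. Hmox1, encoding haem oxygenase 1, went from 39.7 and 37.9 to 65.1 and 64.0 CPM (0.73 ± 0.05, adjusted p = 1.3e-14). The matrix genes Timp1, a metalloproteinase inhibitor, and Tnc, tenascin C, rose from 194 and 187 to 325 and 313 CPM (0.74 ± 0.03) and from 94.0 and 92.0 to 144 and 141 CPM (0.62 ± 0.03), while Adamts5, an aggrecanase, fell from 63.3 and 68.6 to 48.1 and 45.0 CPM (−0.50 ± 0.05).

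Unspliced annotation models of the TEC class were 39 of the 125 genes that fell at least 2-fold and 31 of the 118 that rose. Among all 989 tested TEC genes 74 rose and 83 fell, and among 412 long intergenic RNAs 8 rose and 26 fell, against 1205 rises and 845 falls of 12315 protein-coding genes. The Sprouty gene Spry3, picked after its values were seen, read 2.03 and 1.77 CPM untreated, above both of its 90 min libraries.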
